A study of Mus musculus with 18 samples.

Results

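Unstimulated macrophages without prolyl endopeptidase were compared with unstimulated macrophages that kept 1 working copy of its gene. The comparison took the 3 Prep-/- and the 3 Prep+/- libraries of the M0 state, 6 of the 18 libraries of the study, and covered all genes. Bone marrow cells from the femora of Prep-/- mice and of their Prep+/- littermates, on a C57BL6/J background, were grown for 7 days with serum and 50 ng/ml M-CSF, the growth factor that turns precursors into bone marrow-derived macrophages (BMDMs). M0 cells received nothing further, whereas the remaining 12 libraries came from cells given 50 ng/ml LPS (M1), or 20 ng/ml each of IL-4 and IL-13 (M2), for 24 h. Both genotypes compared here lack at least 1 copy of Prep, so that the controls were not wild type, and the age of the marrow donors was not given in the sources used here. There were 3 biological replicates per genotype, and the values are read counts per gene from bulk RNA-seq of whole cultures.

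PREP is a serine peptidase that cuts short peptides after proline, and it also binds other proteins. Macrophages grown in M-CSF depend on its receptor, CSF1R, for survival and division, and they leave the cell cycle when the signal is withdrawn or when they are activated. The unstimulated state also sets how strongly interferon-stimulated genes, antigen presentation, lysosomal degradation and lipid export are expressed before any stimulus arrives.

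Library totals ranged from 19068237 to 21691155 counts in M0, and all pairs of replicates differed by more than sampling noise. Prep-/- replicate 3 stood apart. The chi-square per degree of freedom against the other Prep-/- replicates was 112 and 120, and it was 12.8 to 35.2 for the other pairs within a genotype. In that library short transcripts were higher and long ones lower than in the mean of the other Prep-/- replicates. The median log2 deviation was 0.36 in the 25% of genes with the shortest transcripts and -0.32 in the 25% with the longest. Length trends were not confined to it. The same medians, each against the other replicates of the genotype, were -0.28 and 0.21 in Prep-/- replicate 2. They were 0.15 and -0.15 in Prep+/- replicate 1, and -0.17 and 0.16 in Prep+/- replicate 3. Prep-/- replicate 3 also held 11.8 CPM (counts scaled to a common library size) of Alb, a liver gene at 0 in the other 5 M0 libraries. The liver genes Ahsg and Cyp3a11 (1.20 and 1.29 CPM in that library) were likewise at 0 elsewhere. Col1a1 was at 0.138 CPM in that library against 5.13 to 6.78 CPM elsewhere. Counts of the gene groups are therefore also given without Prep-/- replicate 3.

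All 15 macrophage markers listed were detected in every library. Their summed level was 28808, 29270.0 and 25225 CPM in the Prep+/- libraries and 61966, 48875 and 40713 CPM in the Prep-/- libraries. Lyz2 alone, the largest part of the sum, was 17839, 18710 and 14850 CPM and 39295, 32197 and 25299 CPM. By the criteria given below, 12 of the 15 were higher in Prep-/- with none lower, against 15.4% higher and 17.2% lower of all genes tested. Csf1r, the M-CSF receptor, measured 1157, 1159.9 and 1307 CPM in Prep+/- and 4097, 3391 and 2029 CPM in Prep-/- libraries (log2 fold change 1.39, SE 0.20, edgeR adjusted p = 4.2e-05). Adgre1, which encodes F4/80, rose from 708, 712 and 795 CPM to 2193, 1726 and 1239 CPM (log2 fold change 1.22, SE 0.17, edgeR adjusted p = 2.47e-05). Both genes were separated between the genotypes with no overlap, whereas Cd68 and Itgam were not called (-0.11 and 0.20 on the log2 scale). In bulk RNA, fewer cells of a type and less RNA per cell cannot be told apart. Markers of granulocyte precursors summed to 76.3 to 99.2 CPM in Prep+/- and 134 to 196 CPM in Prep-/- BMDMs. The 5 of 8 tested members that were higher were S100a8, S100a9, Ngp, Camp and Ltf. Mmp8, a large part of the sum, was not called (0.24, edgeR adjusted p = 0.412), nor was Cebpe, which was lower (-0.90, edgeR adjusted p = 0.0619). Elane, Ctsg and Ms4a3 stayed under 1 CPM in every library, and Mpo and Prtn3 peaked at 1.09 and 1.23 CPM. B cell markers summed to 5.57 to 7.20 CPM and 13.5 to 19.5 CPM, made up almost wholly of Cd79b and Cd22, whereas the defining markers Cd79a, Ms4a1 and Ebf1 were at 0 in all Prep-/- libraries. The list of T and NK cell markers summed to 1.08 to 1.14 CPM and 8.40 to 30.0 CPM, nearly all of it Cd4, and the other 4 members in the table stayed under 1 CPM in every library. The part of these cells in the results below was not tested.

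Prep itself, on chromosome 10 of GRCm39 (chr10:44943130-45043294, plus strand), stood at 30.1, 34.9 and 42.5 CPM in the Prep+/- libraries and 1.99, 2.01 and 1.48 CPM in the Prep-/- libraries (log2 fold change -4.29, SE 0.19, edgeR adjusted p = 5.97e-10). The genotypes were far apart, and the label of each of the 6 libraries was matched by its Prep level, with some reads left in each Prep-/- library. The sources used here do not give which exons the allele lacks. Differentially expressed genes (DEGs) had to pass both an edgeR adjusted p of 0.05 and a 1.5-fold change. Of 12021 genes tested, 1848 were higher in Prep-/- M0 BMDMs (15.4%) and 2065 were lower (17.2%), together 32.6%. The libraries of the genotypes did not overlap at all for 1739 of the higher and 2010 of the lower DEGs. DEGs were called from these same libraries, so that a lack of overlap is not separate support for a call. This holds for every DEG named in the text. The share without overlap over all genes tested was not counted. The change was over 4-fold for 235 higher and 305 lower genes. Without Prep-/- replicate 3, 2004 genes were higher and 2195 lower (16.7% and 18.3%). Over all tested genes the log2 fold change had a median of 0.02.

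Among genes with a mean of at least 5 CPM, the largest rises belonged to membrane proteins, an interferon-induced gene and antigen presentation. Fxyd2, a regulatory subunit of the sodium pump (chr9:45310967-45322004, plus strand), was 1.41, 1.22 and 0.561 CPM in Prep+/- and 59.2, 30.1 and 31.1 CPM in Prep-/- (log2 fold change 5.24, SE 0.46, edgeR adjusted p = 6.59e-07). Ms4a4a, a multi-span membrane protein of macrophages (chr19:11352823-11370154, plus strand), went from 15.7, 5.68 and 7.13 CPM to 398, 234 and 324 CPM (log2 fold change 5.07, SE 0.42, edgeR adjusted p = 4.65e-07). Adgre4, an adhesion receptor of the F4/80 family, was at 2.42, 1.58 and 1.76 CPM and 98.4, 41.6 and 23.2 CPM (log2 fold change 4.83, SE 0.51, edgeR adjusted p = 2.6e-06). By the rule of choice, the lowest Prep-/- library lay above the highest Prep+/- library for these genes. Thbs1 encodes thrombospondin, a secreted glycoprotein that binds matrix and TGF-beta, and its level was 10.9, 5.25 and 11.7 CPM in Prep+/- and 347, 206 and 140.0 CPM in Prep-/- (log2 fold change 4.63, SE 0.33, edgeR adjusted p = 1.57e-07). Kmo, the kynurenine monooxygenase of tryptophan breakdown, measured 1.05, 0.316 and 0.761 CPM and 15.8, 14.6 and 10.8 CPM (log2 fold change 4.28, SE 0.51, edgeR adjusted p = 8.59e-06). Cd4, a co-receptor of helper T cells that some monocytes and macrophages also carry, measured 0.82, 0.75 and 0.962 CPM and 29.6, 13.2 and 7.84 CPM (log2 fold change 4.31, SE 0.44, edgeR adjusted p = 2.1e-06). Of the Prep-/- libraries, replicate 1 was the highest for Fxyd2, Ms4a4a, Adgre4, Thbs1, Kmo and Cd4.

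The largest fall was that of Dmpk (chr7:18817406-18827746, plus strand), a serine/threonine kinase, which measured 120.2, 171 and 158 CPM in Prep+/- and 1.28, 2.26 and 2.45 CPM in Prep-/- libraries (log2 fold change -6.22, SE 0.26, edgeR adjusted p = 4.8e-10). Its neighbour Dmwd, named after its values were seen, lay at 20.01, 35.2 and 37.1 CPM and 2.89, 3.26 and 3.55 CPM (log2 fold change -3.25, SE 0.31, edgeR adjusted p = 1.37e-06). Id1, an inhibitor of helix-loop-helix factors and a target of BMP signals, fell from 9.80, 34.6 and 36.7 CPM to 0.427, 0.167 and 0.923 CPM (log2 fold change -5.75, SE 0.69, edgeR adjusted p = 8.5e-06). No overlap between the genotypes was a condition for choosing Dmpk and Id1. The Prep+/- libraries themselves spread for Id1, with replicate 1 lowest. Cspg4, the proteoglycan NG2, was 14.1, 21.4 and 22.04 CPM and 1.23, 1.13 and 1.15 CPM (log2 fold change -4.03, SE 0.34, edgeR adjusted p = 5.03e-07). Pcdhgc3, a protocadherin whose exons are partly shared with its gene cluster, measured 7.66, 11.9 and 17.6 CPM and 0.901, 1.13 and 0 CPM (log2 fold change -4.17, SE 0.76, edgeR adjusted p = 0.000309). The other largest falls were Ccl2, Ccnd1 and Ccne2, described with their groups, and the replication-linked genes Ung (-3.86) and Cdca7 (-3.91 on the log2 scale). Ung encodes the glycosylase that removes uracil from DNA.

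**Figure D1:**
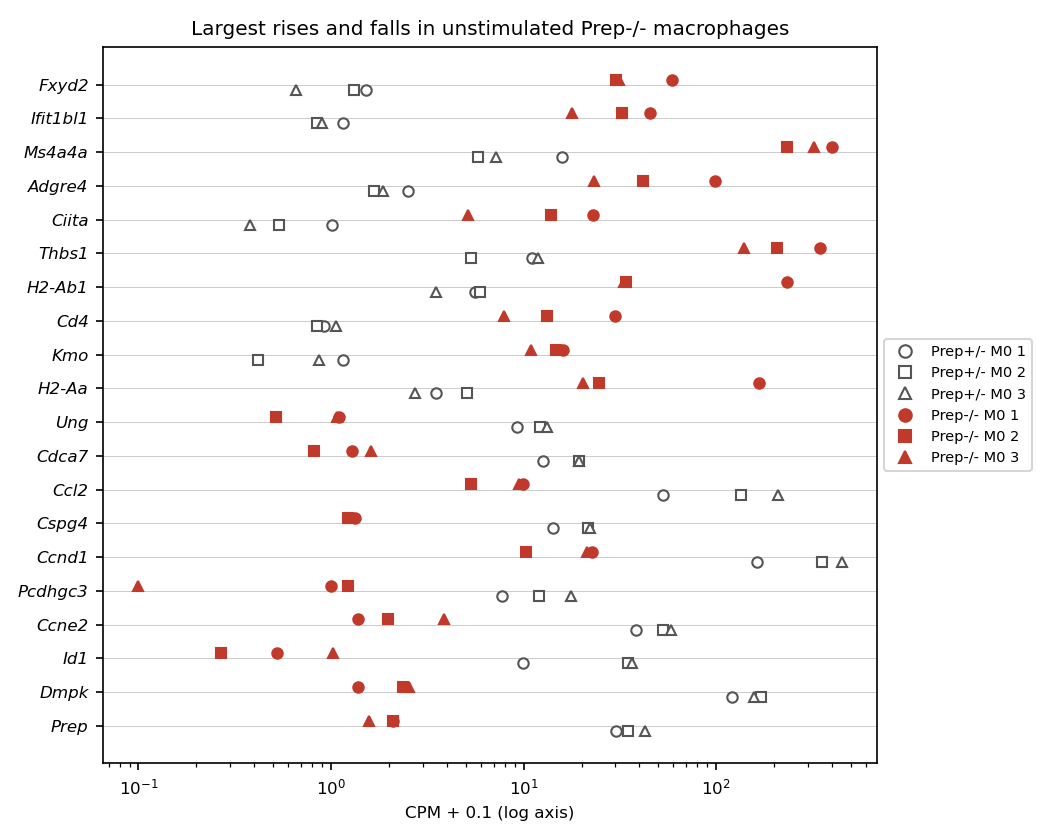
Level of Prep and of the genes with the largest rises and falls in M0, as CPM + 0.1 on a log axis, with 1 point per library (open grey for Prep+/-, filled red for Prep-/-, marker shape for the replicate number). The genes other than Prep were chosen from DEGs with no overlap between the genotypes, so that their separation is not a separate finding. H2-Aa and H2-Ab1 of Prep-/- replicate 1 lie far above those of the other Prep-/- replicates.

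Genes of DNA replication and mitosis were lower in Prep-/- macrophages almost without exception. Of 48 replication genes tested, 46 fell and none rose, with a median log2 fold change of -1.99, against 17.2% lower among all genes. The 2 that were not DEGs, Rfc1 and Rfc2, had values of -0.55 and -0.45. Of 40 mitotic genes, 38 fell and none rose (median -1.53), and Ccnb2 (-0.72, edgeR adjusted p = 0.0537) and Cenpa (0.28, edgeR adjusted p = 0.324) were not called. Their summed level showed the same split by library: replication genes came to 4245, 4588 and 4553 CPM in Prep+/- and 916, 1134 and 1445 CPM in Prep-/-. Mitotic genes came to 5055, 5049.7 and 5209.8 CPM and 1082, 2333 and 2387 CPM, so that Prep-/- replicate 1 was the lowest for both groups. Without Prep-/- replicate 3 the same groups had 46 and 39 lower genes. In the RefSeq promoters (GRCm38.p6), the E2F letters TTTCGCGC or TTTGGCGC stood on either strand within 250 bases before the start of 7 of 39 replication genes, 1 of 31 mitotic genes and 1.47% of all genes with an entry, a search added after the values were seen.

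Cyclin E, which drives entry into S phase, was among the most reduced. Ccne1 measured 28.03, 35.4 and 32.3 CPM in Prep+/- and 1.75, 2.68 and 2.58 CPM in Prep-/- libraries (log2 fold change -3.76, SE 0.31, edgeR adjusted p = 4.7e-07). Ccne2 stood at 38.2, 52.8 and 58.4 CPM and 1.28, 1.88 and 3.78 CPM (log2 fold change -4.42, SE 0.55, edgeR adjusted p = 1.16e-05). Rrm2, a subunit of the enzyme that makes deoxyribonucleotides, fell from 165, 192 and 204 CPM to 7.78, 18.4 and 31.3 CPM (log2 fold change -3.29, SE 0.47, edgeR adjusted p = 4.23e-05). No library of one genotype reached the range of the other for these genes. Pcna, the sliding clamp of DNA polymerase, was 475, 520.1 and 538 CPM and 129, 101 and 178 CPM (log2 fold change -1.91, SE 0.30, edgeR adjusted p = 9.8e-05). Mybl2, a transcription factor of late cell cycle genes, was 25.5, 31.6 and 35.2 CPM and 1.75, 2.51 and 3.92 CPM (log2 fold change -3.49, SE 0.34, edgeR adjusted p = 1.42e-06). Mki67, the proliferation antigen Ki-67, remained at 103, 238 and 195 CPM in Prep-/- libraries against 469, 502 and 558 CPM (log2 fold change -1.51, SE 0.27, edgeR adjusted p = 0.000252). The mitotic kinetochore gene Spc25 and the cohesin acetyltransferase Esco2 were likewise separated (-2.13 and -2.43 on the log2 scale).

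Upstream of these genes, Ccnd1, the D-type cyclin that links growth factor signals to the cycle (chr7:144483668-144493662, minus strand), fell from 163, 353 and 449 CPM to 22.6, 10.2 and 21.3 CPM (log2 fold change -4.16, SE 0.67, edgeR adjusted p = 0.000108). The growth regulator Myc was 9.53, 23.9 and 43.4 CPM in Prep+/- and 2.56, 1.46 and 1.66 CPM in Prep-/- libraries (log2 fold change -3.76, SE 0.64, edgeR adjusted p = 0.000175). For both genes Prep+/- replicate 1 was the lowest control, yet it stayed above every Prep-/- library. In the opposite direction, Cdkn1b, the CDK inhibitor p27, rose from 37.1, 28.02 and 28.3 CPM to 67.7, 65.3 and 84.8 CPM (log2 fold change 1.22, SE 0.18, edgeR adjusted p = 3.99e-05). Btg1, an antiproliferative factor, was 209, 165 and 143 CPM and 403, 318 and 483 CPM (log2 fold change 1.22, SE 0.16, edgeR adjusted p = 1.79e-05). Gadd45a, a growth arrest gene, was 9.25, 9.39 and 5.85 CPM and 23.1, 17.2 and 34.1 CPM (log2 fold change 1.60, SE 0.24, edgeR adjusted p = 6.19e-05). None of these growth arrest genes overlapped between the genotypes. Cdkn1a, the CDK inhibitor p21, changed by less than the fold criterion asks (-0.46, edgeR adjusted p = 0.00812). In the whole list of D-type cyclins, CDK inhibitors and p53 targets, 5 were higher and 10 lower among 25 tested, together 60% against 32.6% of all genes. Without Prep-/- replicate 3 there were 5 higher and 11 lower.

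**Figure D2:**
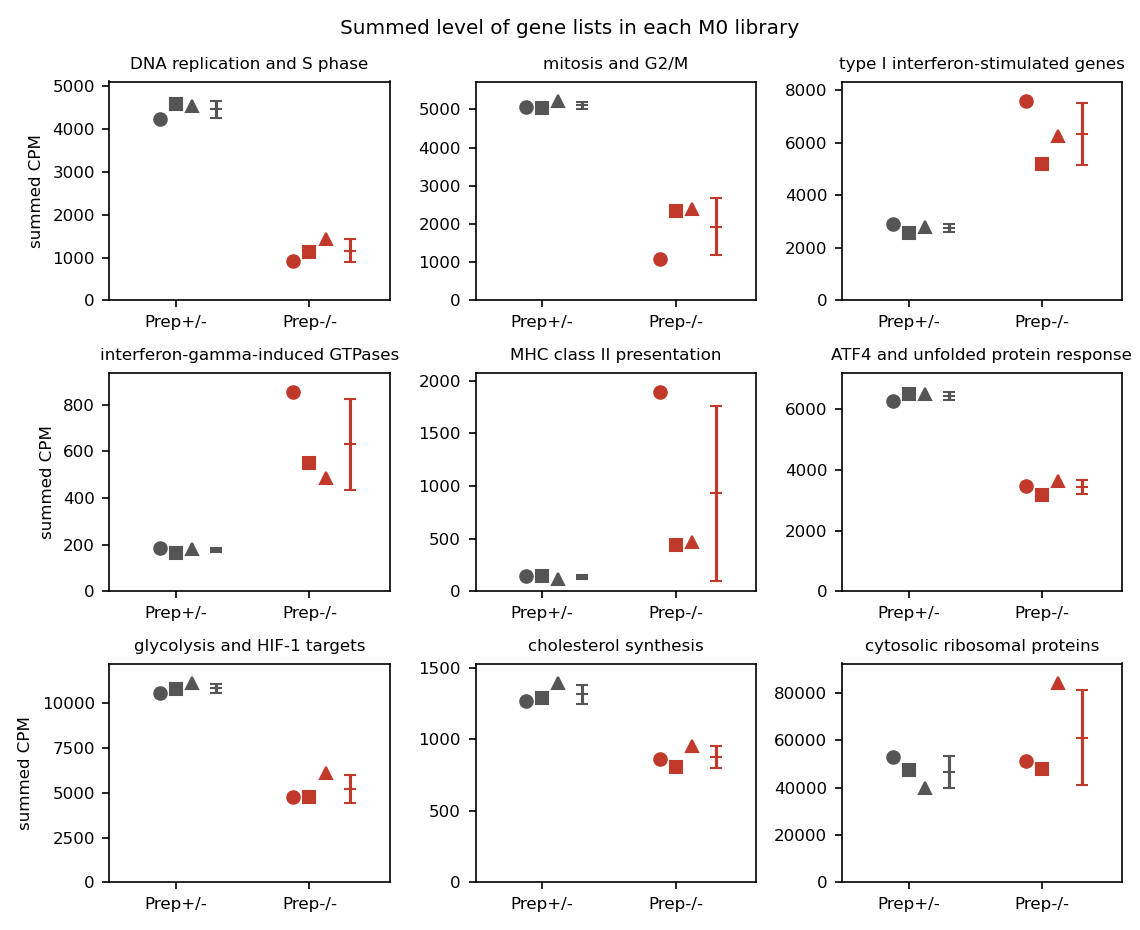
Summed CPM of the members of each gene list in every M0 library, with axes from 0, grey for Prep+/- and red for Prep-/-, marker shape for the replicate number (circle 1, square 2, triangle 3) and the mean with its SD beside the points. Prep-/- replicate 1 is highest for antigen presentation, and Prep-/- replicate 3 alone is high for ribosomal proteins.

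Interferon-stimulated genes, which restrict viruses, were higher in resting Prep-/- macrophages. Of 55 type I interferon-stimulated genes tested, 47 rose and 1 fell, with a median log2 fold change of 1.40, against 15.4% higher among all genes. Of 18 interferon-gamma-induced genes, mostly guanylate-binding proteins and immunity-related GTPases that attack intracellular microbes, 16 rose and none fell (median 2.44). The summed level of the first list was 2902, 2572 and 2793 CPM in Prep+/- and 7578, 5205 and 6250.4 CPM in Prep-/- libraries. That of the second list was 185, 167 and 182 CPM and 853, 549 and 488 CPM, so that the Prep+/- libraries lay close together and Prep-/- replicate 1 was the highest for both. Without Prep-/- replicate 3 the first list had 46 higher and 1 lower, and the second 17 higher and 0 lower.

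Ifit1bl1, of the Ifit family of antiviral RNA-binding proteins, was 1.05, 0.75 and 0.801 CPM in Prep+/- and 45.2, 32.5 and 17.7 CPM in Prep-/- libraries (log2 fold change 5.20, SE 0.51, edgeR adjusted p = 1.61e-06). Ifit3 went from 7.02, 3.20 and 8.66 CPM to 135, 52.7 and 66.3 CPM (log2 fold change 3.75, SE 0.46, edgeR adjusted p = 1.07e-05), and how reads were divided between it and its near copy Ifit3b (3.85) is not given in the sources used here. All Prep-/- libraries were above all Prep+/- libraries for these genes. Among the GTPases, Gbp5 was 1.64, 1.302 and 1.96 CPM and 31.5, 21.6 and 16.9 CPM (log2 fold change 3.83, SE 0.42, edgeR adjusted p = 4.09e-06). Gbp2 was 13.4, 10.9 and 10.8 CPM and 138, 70.5 and 56.9 CPM (log2 fold change 2.92, SE 0.36, edgeR adjusted p = 1.12e-05). Gbp7 was 5.15, 4.54 and 5.81 CPM and 54.02, 52.9 and 34.6 CPM (log2 fold change 3.19, SE 0.30, edgeR adjusted p = 1.19e-06). Prep-/- replicate 1 was the highest library for each of these GTPases. The transcription factor Irf1 rose less (log2 fold change 1.48, SE 0.27, edgeR adjusted p = 0.000358), as did Ly6e, a surface protein of the interferon response (log2 fold change 1.35, SE 0.23, edgeR adjusted p = 0.0002). Slfn9 of the Schlafen family was the member that fell, from 51.2, 58.9 and 70.1 CPM to 24.3, 22.1 and 17.9 CPM (log2 fold change -1.49, SE 0.22, edgeR adjusted p = 4.52e-05).

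The interferon-stimulated response element (ISRE) is a DNA motif bound by IRF proteins. It was searched as GAAANNGAAA on both strands in the 250 bases before each start in RefSeq promoters of GRCm38.p6, where 9681 of the 12021 genes tested had an entry. The letters were present for 3.43% of all those genes, for 22 of 44 type I interferon-stimulated genes with an entry and for 10 of 12 interferon-gamma-induced genes. Of the MHC class II genes described below, 0 of 9 with an entry held them. The promoters of 5 named genes that held a match are printed, with the motif matches in capitals. Their transcripts rose in Prep-/- cells, or fell in the case of Slfn9. Irf1, which also rose, held no match in its 2 promoter entries and is not printed. Ifit1bl1 and Ifit3b, which rose as well, held matches and are not printed either. Ifit3 lies at chr19:34583279-34583528 (plus strand), Gbp2 at chr3:142620413-142620662 (plus strand), Gbp5 at chr3:142496684-142496933 (plus strand), Gbp7 at chr3:142530086-142530335 (plus strand) and Slfn9 at chr11:82991831-82992080 (minus strand), all in GRCm38.p6 coordinates and written 5′ to 3′ along the gene.
Ifit3 promoter: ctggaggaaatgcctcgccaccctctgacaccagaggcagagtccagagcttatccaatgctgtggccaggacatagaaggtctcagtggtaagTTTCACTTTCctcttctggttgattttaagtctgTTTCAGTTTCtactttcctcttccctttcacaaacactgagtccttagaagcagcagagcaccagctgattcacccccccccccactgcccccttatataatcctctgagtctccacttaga
Gbp2 promoter: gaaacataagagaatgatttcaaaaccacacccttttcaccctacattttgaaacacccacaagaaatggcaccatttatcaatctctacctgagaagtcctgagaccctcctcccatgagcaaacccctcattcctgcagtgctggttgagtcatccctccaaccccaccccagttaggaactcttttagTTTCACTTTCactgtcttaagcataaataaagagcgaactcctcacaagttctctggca
Gbp5 promoter: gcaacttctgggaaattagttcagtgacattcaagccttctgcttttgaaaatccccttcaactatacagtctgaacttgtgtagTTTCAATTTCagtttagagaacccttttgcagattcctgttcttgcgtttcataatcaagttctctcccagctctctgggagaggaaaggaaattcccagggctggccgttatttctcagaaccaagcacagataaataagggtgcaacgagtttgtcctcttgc
Gbp7 promoter: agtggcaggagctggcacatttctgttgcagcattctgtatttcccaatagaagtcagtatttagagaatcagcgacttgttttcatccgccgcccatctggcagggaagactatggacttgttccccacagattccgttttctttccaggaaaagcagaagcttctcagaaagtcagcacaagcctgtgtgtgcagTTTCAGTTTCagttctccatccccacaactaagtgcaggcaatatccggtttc
Slfn9 promoter: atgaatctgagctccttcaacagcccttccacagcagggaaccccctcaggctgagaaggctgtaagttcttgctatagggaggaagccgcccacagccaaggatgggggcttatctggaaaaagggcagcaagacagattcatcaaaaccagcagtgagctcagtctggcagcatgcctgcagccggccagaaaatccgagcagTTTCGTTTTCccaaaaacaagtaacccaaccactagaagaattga
Ifit3 held 2 matches and the others 1 each, the one in Slfn9 included, so that the letters were present in a member that rose and in the member that fell. The match in Slfn9 began 45 bases before the start, those in Gbp2 and Gbp7 59 and 53 bases before it. Such a match describes the sequence and does not show that a factor was bound.

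Antigen presentation by MHC class II was higher in every Prep-/- library, most of all in replicate 1. Cd74, the invariant chain that guides class II molecules, was 31.3, 31.5 and 21.8 CPM in Prep+/- and 1107, 185 and 193 CPM in Prep-/- libraries (log2 fold change 4.13, SE 0.53, edgeR adjusted p = 1.61e-05). H2-Ab1, a class II beta chain, measured 5.47, 5.84 and 3.41 CPM and 233, 34.1 and 33.3 CPM (log2 fold change 4.35, SE 0.62, edgeR adjusted p = 3.82e-05). H2-Aa, its alpha chain partner, measured 3.42, 5.01 and 2.65 CPM and 166, 24.5 and 20.2 CPM (log2 fold change 4.25, SE 0.65, edgeR adjusted p = 6.73e-05). Replicate 1 was several-fold above the other Prep-/- libraries for each, and these in turn exceeded the highest Prep+/- library. Ciita, the coactivator that switches on class II genes, was 0.911, 0.434 and 0.281 CPM and 22.8, 13.7 and 5.03 CPM (log2 fold change 4.69, SE 0.55, edgeR adjusted p = 7.71e-06). In the list of 13 genes tested, 10 rose and none fell, so that 76.9% were higher against 15.4% of all genes. With Prep-/- replicate 1 left out the median log2 fold change of the list was 0.99 with 8 higher, and without replicate 3 it was 1.36 with 8 higher, against 1.28 with all libraries. Dendritic and B cells also express class II genes. In the same libraries, 9 of 12 dendritic cell markers (Flt3, Zbtb46, Xcr1, Clec9a, Cd209a, Siglech, Ccr7, Ccr9 and Itgae) stayed under 1 CPM, and Batf3 was 3.87, 2.25 and 1.28 CPM and 3.08, 2.09 and 6.09 CPM. Of the other members, Bst2, also an interferon-stimulated gene, was 212, 174 and 147 CPM and 252, 178 and 406 CPM (0.65, edgeR adjusted p = 0.0383), and Cd24a was 24.1, 26.7 and 25.7 CPM and 5.98, 8.41 and 8.998 CPM (-1.71, edgeR adjusted p = 0.000172). Of the B cell markers, Cd79b was 4.69, 3.99 and 3.01 CPM and 11.5, 8.66 and 11.03 CPM, with Cd79a, Ms4a1 and Ebf1 at 0 in all Prep-/- libraries.

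Class I presentation moved by smaller amounts, with 13 higher and 3 lower genes among 22, together 72.7% against 32.6% of all genes. B2m, the light chain of class I molecules, rose from 1082, 990.4 and 966 CPM to 2849.6, 2098 and 2535 CPM (log2 fold change 1.3005, SE 0.15, edgeR adjusted p = 5.58e-06). The classical heavy chain H2-D1 was 1364, 1224 and 1211 CPM and 3879, 2632 and 2946 CPM (log2 fold change 1.32, SE 0.15, edgeR adjusted p = 4.54e-06), and reads of class I genes can be shared between near-identical copies. Each rise exceeded the spread between replicates. Of the 3 lower genes, Calr, the chaperone calreticulin, fell from 1413, 1378 and 1362 CPM to 548, 511 and 668 CPM (log2 fold change -1.27, SE 0.14, edgeR adjusted p = 3.27e-06). Pdia3, a disulfide isomerase, fell as well (log2 fold change -0.66, SE 0.11, edgeR adjusted p = 0.000161). The third gene that fell, the peptide-trimming protease Erap1, was at -0.61 and lost its call by the fold criterion without Prep-/- replicate 3 (log2 fold change -0.55), when the list had 12 higher and 2 lower genes.

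Receptors of innate recognition followed. Of 23 complement and Fc receptor genes, 13 were higher and 2 lower, together 65.2% against 32.6% of all genes (median 0.92). Fcgr2b, the inhibitory IgG receptor, was 41.1, 33.9 and 30.1 CPM in Prep+/- and 264, 240.4 and 196 CPM in Prep-/- (log2 fold change 2.74, SE 0.22, edgeR adjusted p = 4.39e-07). Fcgr4, an activating IgG receptor, measured 28.3, 23.8 and 30.02 CPM and 135, 99.8 and 105 CPM (log2 fold change 2.05, SE 0.20, edgeR adjusted p = 1.54e-06). C1qb, a chain of the complement starter C1q, was 1486, 1275 and 1125 CPM and 3299, 1973 and 2199 CPM (log2 fold change 0.94, SE 0.19, edgeR adjusted p = 0.000617), and none of these genes overlapped between genotypes. Of 22 Toll-like receptors and adaptors, 12 were higher and 1 lower, together 59.1% (median 0.74). Unc93b1, which carries nucleic acid-sensing receptors to endosomes, rose from 436, 351 and 337 CPM to 1596, 1047 and 1142 CPM (log2 fold change 1.75, SE 0.16, edgeR adjusted p = 1.09e-06). Tlr9, the receptor for unmethylated DNA, was 2.96, 3.24 and 5.49 CPM and 29.4, 31.9 and 5.35 CPM (log2 fold change 2.51, SE 0.57, edgeR adjusted p = 0.00189), so that Prep-/- replicate 3 fell within the Prep+/- range while the other Prep-/- libraries lay far above it. Tlr13, a sensor of bacterial ribosomal RNA, was the one that fell (log2 fold change -0.92, SE 0.18, edgeR adjusted p = 0.000598). Without Prep-/- replicate 3 the complement list had 11 higher and 2 lower genes, without Prep-/- replicate 1 or 2 or Prep+/- replicate 2 only 1 complement gene was lower, and without Prep-/- replicate 3 the Toll-like receptor list had 13 higher and 1 lower genes.

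Chemokine genes moved in both directions. Of 21 tested, 7 were higher and 3 lower, together 47.6% against 32.6% of all genes (median -0.21). Ccl2, which recruits monocytes through CCR2, fell from 52.7, 134 and 210.0 CPM to 9.86, 5.23 and 9.37 CPM (log2 fold change -4.02, SE 0.82, edgeR adjusted p = 0.000786). Ccl7, a second CCR2 ligand beside it on the chromosome, fell from 24.7, 52.9 and 86.8 CPM to 4.88, 2.13 and 4.75 CPM (log2 fold change -3.81, SE 0.60, edgeR adjusted p = 9.2e-05). Prep+/- replicate 1 was the lowest control for both, still above all Prep-/- libraries. Cxcl10, the interferon-inducible ligand of CXCR3, rose from 6.29, 4.81 and 3.61 CPM to 79.5, 32.3 and 38.6 CPM (log2 fold change 3.36, SE 0.59, edgeR adjusted p = 0.000248). Ccl5 was 4.06, 3.20 and 2.28 CPM and 19.2, 7.58 and 2.54 CPM (log2 fold change 1.62, SE 0.55, edgeR adjusted p = 0.0234), and it overlapped, with Prep-/- replicate 3 inside the Prep+/- range. Its log2 fold change was 0.68 without Prep-/- replicate 1 (edgeR adjusted p = 0.288), and its call was also lost without Prep+/- replicate 2 or 3 and with M0 libraries alone (edgeR adjusted p = 0.0726). Among 15 receptors, 4 were higher and 2 lower, together 40% against 32.6% of all genes, and 5 higher and 1 lower without Prep-/- replicate 3. Ccr2 rose from 41.5, 40.4 and 43.2 CPM to 130.4, 114 and 87.1 CPM (log2 fold change 1.40, SE 0.19, edgeR adjusted p = 2.25e-05), and Cmklr1, the chemerin receptor, from 4.51, 3.43 and 4.25 CPM to 37.99, 25.1 and 12.3 CPM (log2 fold change 2.63, SE 0.32, edgeR adjusted p = 9.39e-06). Cx3cr1, the fractalkine receptor, fell from 46.8, 56.8 and 52.1 CPM to 18.4, 17.7 and 12.5 CPM (log2 fold change -1.68, SE 0.26, edgeR adjusted p = 7.92e-05). The call of Ccr1 (-1.55, edgeR adjusted p = 0.0403) was lost when any 1 of the Prep-/- libraries, or Prep+/- replicate 2 or 3, was left out. Without Prep-/- replicate 1 there were 4 higher and 5 lower chemokine genes, without Prep+/- replicate 2 there were 4 higher, and without Prep-/- replicate 3 there were 5 lower. The number lower was also 5 with DESeq2, and 6 with the transcript length trend removed.

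Among cytokine and inflammasome genes, 7 were higher and 2 lower of 24 tested, together 37.5% against 32.6% of all genes, with the same counts without Prep-/- replicate 3. The M1 markers were low in unstimulated cells, and they did not move together. Il1b measured 1.05, 1.38 and 0.962 CPM in Prep+/- and 8.87, 3.06 and 1.94 CPM in Prep-/- (log2 fold change 2.01, SE 0.49, edgeR adjusted p = 0.00309). Tnf measured 13.4, 25.9 and 26.7 CPM and 7.64, 5.27 and 6.37 CPM (log2 fold change -1.78, SE 0.53, edgeR adjusted p = 0.0115). Thus Il1b rose and Tnf fell, each without overlap, while Nos2 and Il6 stayed at or under 0.335 CPM in all 6 libraries and no difference was detectable at this depth. Il18bp, the decoy that binds interleukin-18, was 3.28, 2.92 and 2.48 CPM and 17.3, 11.1 and 8.91 CPM (log2 fold change 2.10, SE 0.28, edgeR adjusted p = 2.19e-05). Of 22 markers of alternative activation, 10 were higher and 4 lower, together 63.6% (median 0.80). The lectin gene Clec10a rose from 17.6, 12.2 and 9.54 CPM to 146, 106 and 136 CPM (log2 fold change 3.31, SE 0.23, edgeR adjusted p = 1.04e-07), and the mannose receptor Mrc1 from 546, 455 and 569.9 CPM to 804, 878 and 953 CPM (log2 fold change 0.75, SE 0.17, edgeR adjusted p = 0.00174). Arg1, arginase, fell from 2.55, 1.82 and 2.40 CPM to 0.996, 1.05 and 0.185 CPM (log2 fold change -1.58, SE 0.38, edgeR adjusted p = 0.00276). Msr1, a scavenger receptor, fell from 395, 543 and 549 CPM to 107, 101 and 94.8 CPM (log2 fold change -2.30, SE 0.19, edgeR adjusted p = 4.7e-07). Chil3 was 9.30, 7.54 and 5.97 CPM and 27.6, 13.2 and 8.26 CPM (log2 fold change 1.11, SE 0.33, edgeR adjusted p = 0.0113) with overlapping libraries, and its log2 fold change was 0.50 without Prep-/- replicate 1 (edgeR adjusted p = 0.137), with the call lost also without Prep+/- replicate 3. Retnla was not called (-0.41, edgeR adjusted p = 0.643). The alternative activation list had 10 higher and 3 lower genes without Prep-/- replicate 3. The number that fell was 7 without Prep-/- replicate 1 and 2 without Prep+/- replicate 2.

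Lysosomal genes rose in part. Of 18 cathepsins, legumain and cystatins tested, 9 were higher and 1 lower (median 0.53), of 37 lysosomal hydrolases, 12 were higher and 3 lower (median 0.21), and of 34 genes of the lysosomal membrane, V-ATPase and TFEB family, 10 were higher and 0 lower (median 0.23). Called in either direction were 55.6%, 40.5% and 29.4% of these lists, against 32.6% of all genes. The last share is near that of all genes. It was made up of 10 higher and 0 lower members of 34, against 15.4% higher and 17.2% lower among all genes. Psap, the precursor of the saposins that help break down sphingolipids, was 5966, 5019 and 4977 CPM in Prep+/- and 17030.0, 12935 and 16704 CPM in Prep-/- (log2 fold change 1.55, SE 0.16, edgeR adjusted p = 2.19e-06). Hexa, a subunit of hexosaminidase, was 940.0, 821 and 767 CPM and 1936, 1721 and 2294 CPM (log2 fold change 1.24, SE 0.14, edgeR adjusted p = 3.88e-06). Lgmn, the asparaginyl protease legumain, was 1108, 893 and 890.1 CPM and 2172, 1768 and 2536 CPM (log2 fold change 1.16, SE 0.18, edgeR adjusted p = 7.98e-05). The Prep-/- libraries were clear of the Prep+/- range for each. Ctsf rose from 19.9, 17.4 and 14.7 CPM to 60.9, 41.4 and 50.5 CPM (log2 fold change 1.55, SE 0.20, edgeR adjusted p = 1.91e-05), and Ctss, which trims the invariant chain of class II molecules, from 1838, 1851 and 1636 CPM to 4522, 2847 and 2864 CPM (log2 fold change 0.94, SE 0.16, edgeR adjusted p = 0.000215). Arsb, arylsulfatase B, fell from 78.7, 79.7 and 109 CPM to 19.5, 38.9 and 40.004 CPM (log2 fold change -1.44, SE 0.22, edgeR adjusted p = 6.4e-05). These lists without Prep-/- replicate 3 had 9 higher and 1 lower, 13 higher and 4 lower and 8 higher and 1 lower genes.

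The cathepsins with the highest counts changed less. Ctsb, cathepsin B, was 10604, 10014 and 9694 CPM in Prep+/- and 13529, 11972 and 15068 CPM in Prep-/- (log2 fold change 0.42, SE 0.13, edgeR adjusted p = 0.0116), which passed the adjusted p but not the fold criterion. Ctsd, cathepsin D, was 9264, 8602 and 8406 CPM and 9744, 9150.1 and 13157 CPM (log2 fold change 0.29, SE 0.14, edgeR adjusted p = 0.0999), not called, with Prep-/- replicate 3 the highest library. Ctsk, the collagen-degrading cathepsin K, was 7.16, 8.44 and 7.01 CPM and 6.17, 6.40 and 8.44 CPM (log2 fold change -0.11, SE 0.17, edgeR adjusted p = 0.631), and its libraries overlapped. The adjusted p of Ctsb rose to 0.115 when only the M0 libraries were fitted and reached 0.0509 and 0.0556 with Prep+/- replicate 2 or 3 left out. The CLEAR core TCACGTGA, bound by TFEB and related factors, was found in the 250 bases before the start of 1.79% of all genes with a RefSeq entry, 2 of 13 cathepsin and cystatin genes, 2 of 29 hydrolases and 3 of 27 membrane and V-ATPase genes. It was not among the letters of these windows for Psap, Hexa, Lgmn, Ctsf, Man2b1 or Arsb.

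Among 23 genes of fatty acid synthesis and LXR targets, 8 were higher and 6 lower, together 60.9% against 32.6% of all genes (median 0.02). Without Prep-/- replicate 3 there were 7 higher and 4 lower. Apoe, the apolipoprotein that carries cholesterol out of macrophages, was 1479, 944 and 849 CPM in Prep+/- and 10756, 5656 and 5409 CPM in Prep-/- (log2 fold change 2.74, SE 0.37, edgeR adjusted p = 2.32e-05). Pltp, the phospholipid transfer protein, went from 103, 62.7 and 74.4 CPM to 1864, 761 and 882 CPM (log2 fold change 3.87, SE 0.35, edgeR adjusted p = 7.48e-07). Abca1, the cholesterol efflux pump, went from 92.9, 61.2 and 78.6 CPM to 551, 422 and 318 CPM (log2 fold change 2.47, SE 0.20, edgeR adjusted p = 3.72e-07). No library of these 3 LXR targets overlapped between the genotypes. In the same list, Fasn, fatty acid synthase, fell from 48.7, 51.8 and 63.2 CPM to 24.3, 30.4 and 18.5 CPM (log2 fold change -1.16, SE 0.28, edgeR adjusted p = 0.00271). Of 24 cholesterol synthesis genes, 10 fell and none rose (median -0.54), so that 41.7% were lower against 17.2% of all genes. Sqle, squalene epoxidase, was 53.1, 65.3 and 75.1 CPM and 18.8, 14.5 and 17.1 CPM (log2 fold change -1.94, SE 0.50, edgeR adjusted p = 0.00434). Idi1, an isomerase early in the pathway, was 13.2, 18.3 and 21.5 CPM and 5.03, 7.87 and 3.23 CPM (log2 fold change -1.71, SE 0.43, edgeR adjusted p = 0.00374). Srebf2, which encodes their main transcription factor, was at -0.54, edgeR adjusted p = 0.0133, below the fold criterion. Cholesterol synthesis had 0 higher and 10 lower genes without Prep-/- replicate 3. Among 22 genes of lipid uptake and scavenging, 4 were higher and 5 lower, together 40.9%, and 5 higher and 5 lower without that library. Marco, a scavenger receptor, fell from 61.4, 78.4 and 32.2 CPM to 5.98, 11.6 and 6.18 CPM (log2 fold change -2.85, SE 0.40, edgeR adjusted p = 3e-05). Spp1, osteopontin, fell from 4202, 4626 and 5152 CPM to 773, 1022 and 2254 CPM (log2 fold change -1.79, SE 0.39, edgeR adjusted p = 0.00123), whereas Gpnmb was not called (-0.08, edgeR adjusted p = 0.72).

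Glycolytic transcripts were mostly lower. Of 30 glycolytic genes and HIF-1 targets, 3 were higher and 17 lower, together 66.7% against 32.6% of all genes, with a median of -0.83. Eno1, enolase, fell from 952, 999 and 1055 CPM to 293, 252 and 306 CPM (log2 fold change -1.82, SE 0.14, edgeR adjusted p = 3.72e-07). Ldha, lactate dehydrogenase, fell from 1217, 1282 and 1224 CPM to 359, 310.1 and 512 CPM (log2 fold change -1.66, SE 0.20, edgeR adjusted p = 1.11e-05). Pkm, pyruvate kinase, fell from 3076, 3089 and 3157 CPM to 1057, 1174 and 1641 CPM (log2 fold change -1.27, SE 0.17, edgeR adjusted p = 2.79e-05). The summed level was 10581, 10827 and 11113 CPM in Prep+/- and 4747, 4775 and 6120.5 CPM in Prep-/-, with no overlap. The members that rose were Vegfa, the vascular growth factor, from 4.92, 5.13 and 9.86 CPM to 51.98, 30.5 and 20.1 CPM (log2 fold change 2.36, SE 0.54, edgeR adjusted p = 0.00181), and the regulators of phosphofructokinase Pfkfb3 (log2 fold change 1.70, SE 0.28, edgeR adjusted p = 0.000126) and Pfkfb4 (log2 fold change 0.80, SE 0.13, edgeR adjusted p = 9.46e-05). The list had 4 higher and 18 lower genes without Prep-/- replicate 3.

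Transcripts of amino acid supply and of protein folding in the endoplasmic reticulum, grouped as ATF4 and unfolded protein response genes, were mostly lower as well. Of 32 tested, 21 fell and 1 rose, together 68.75% against 32.6% of all genes (median -0.93). Without Prep-/- replicate 3 there were 2 higher and 20 lower. Asns, asparagine synthetase, was 56.2, 61.6 and 68.6 CPM in Prep+/- and 5.64, 7.45 and 11.5 CPM in Prep-/- (log2 fold change -2.92, SE 0.40, edgeR adjusted p = 2.5e-05). Slc7a5, a transporter of large neutral amino acids, was 17.8, 20.2 and 29.1 CPM and 1.09, 2.34 and 2.58 CPM (log2 fold change -3.47, SE 0.42, edgeR adjusted p = 8.82e-06). Mthfd2, of mitochondrial folate metabolism, was 55.97, 77.5 and 76.4 CPM and 7.54, 7.83 and 12.1 CPM (log2 fold change -2.94, SE 0.41, edgeR adjusted p = 2.86e-05). All these libraries were separated by genotype, with Prep-/- replicate 3 the highest of the Prep-/- libraries for each. The only member that rose was Herpud1, of the degradation of misfolded proteins (log2 fold change 0.81, SE 0.15, edgeR adjusted p = 0.000328). Of 25 Nrf2 targets and iron genes, 3 were higher and 9 lower, together 48% (median -0.06), and 2 higher and 10 lower without Prep-/- replicate 3 (median -0.30). Gclc, the rate-limiting enzyme of glutathione synthesis, fell from 44.3, 49.05 and 57.3 CPM to 12.9, 17.4 and 9.41 CPM (log2 fold change -1.92, SE 0.23, edgeR adjusted p = 8.59e-06).

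Ribosomal and respiratory chain transcripts depended on single libraries. Of 86 cytosolic ribosomal protein genes, 7 were higher and 1 lower, together 9.30% against 32.6% of all genes, and their median log2 fold change was 0.39. Their summed level was 53058, 47183 and 39740.0 CPM in Prep+/- and 51338, 47670.0 and 83896 CPM in Prep-/-, so that only Prep-/- replicate 3 lay above all controls. With that library left out 1 higher and 2 lower genes were counted and the median was 0.10. Processed pseudogenes can share reads with these genes. Of 60 oxidative phosphorylation genes, 2 were higher and 4 lower, together 10% (median -0.03), and without that library 1 higher and 10 lower (median -0.29). Cycs, cytochrome c, fell with and without it (-1.74 and -1.80), as did Atp5b, an ATP synthase subunit (-0.87 and -0.85). In contrast Uqcrh, a subunit of complex III, was 175, 154 and 116 CPM and 218, 169 and 336 CPM, and its call was lost without that library (log2 fold change 0.70 with it and 0.39 without it). Rps9 and Rps14 lost their calls in the same way, and all of these also lost them without Prep+/- replicate 3. Depending on which library was left out, 1 (Prep-/- replicate 3 or Prep+/- replicate 3) to 29 (Prep-/- replicate 2) ribosomal protein genes were higher, with 20 without Prep-/- replicate 1, 14 without Prep+/- replicate 1 and 4 without Prep+/- replicate 2. Oxidative phosphorylation had 5 higher genes without Prep-/- replicate 2.

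Among BMP and TGF-beta genes, the Id genes, direct targets of BMP receptors, fell together. Beside Id1, Id3 was 48.6, 77.5 and 59.5 CPM in Prep+/- and 9.30, 6.53 and 9.14 CPM in Prep-/- (log2 fold change -2.90, SE 0.37, edgeR adjusted p = 1.47e-05). Id2 was 74.7, 99.5 and 102 CPM and 41.5, 31.1 and 50.9 CPM (log2 fold change -1.16, SE 0.24, edgeR adjusted p = 0.000856), and neither overlapped between genotypes. In the whole list 6 were higher and 7 lower of 29 tested, together 44.8% against 32.6% of all genes, with a median of 0.01. Without Prep-/- replicate 3 there were 7 higher and 6 lower (median 0.21). Ltbp3, which holds latent TGF-beta in the matrix, rose from 17.7, 17.7 and 18.3 CPM to 45.8, 34.7 and 27.8 CPM (log2 fold change 1.01, SE 0.13, edgeR adjusted p = 2.13e-05), and the signal transducer Smad3 rose by less (log2 fold change 0.67, SE 0.13, edgeR adjusted p = 0.000451). The GC-rich SMAD motif GGCGCC was present before the start of 7 of 19 genes of the list with a RefSeq entry and of 19% of all genes. Of the DEGs looked at, Id2, which fell, and Tgfbi, which rose, held it. Id3, Smad3, Ltbp3 and Tgif1 did not, and Id1 had no entry. The other members called were Smad6, Bambi, Bmpr1a and Tgfb3, which were lower, and Bmp2, Tgfbr2, Tgif1 and Tgfbi, which were higher.

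Immediate-early genes were uneven in the control cultures. Egr1 was 7.25, 23.9 and 120.3 CPM in Prep+/- and 6.45, 2.34 and 2.40 CPM in Prep-/- (log2 fold change -3.77, SE 1.03, edgeR adjusted p = 0.00652), so that the Prep+/- libraries differed widely among themselves and replicate 1 was close to the highest Prep-/- library. Without Prep+/- replicate 3 the adjusted p was 0.0809. Dusp4, a MAP kinase phosphatase, was 4.06, 13.4 and 18.04 CPM and 2.47, 1.93 and 1.15 CPM (log2 fold change -2.68, SE 0.40, edgeR adjusted p = 6.17e-05). Of 26 such genes, 3 were higher and 9 lower, together 46.2% against 32.6% of all genes. Without Prep+/- replicate 3 the number lower was 4 (without Prep-/- replicate 3, 3 higher and 8 lower). Among 30 transcription factors of the macrophage lineage, 5 were higher and 6 lower, together 36.7%, close to the 32.6% of all genes, and 7 higher and 7 lower without Prep-/- replicate 3. Irf8, required for monocyte and macrophage identity, rose from 106, 89.9 and 89.7 CPM to 261, 233 and 189 CPM (log2 fold change 1.26, SE 0.15, edgeR adjusted p = 9.96e-06). Spi1, which encodes PU.1, was 356, 344 and 314 CPM and 491, 369 and 451 CPM (log2 fold change 0.37, SE 0.12, edgeR adjusted p = 0.0175), below the fold criterion, and its adjusted p was over 0.05 without Prep+/- replicate 2 or 3 or Prep-/- replicate 1.

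Of 29 extracellular proteases and inhibitors, 4 were higher and 4 lower, together 27.6% against 32.6% of all genes, and of 19 integrins, 3 were higher and 6 lower, together 47.4%. These lists had 5 higher and 4 lower and 3 higher and 4 lower genes without Prep-/- replicate 3. Adam8 fell from 728, 1005 and 1197 CPM to 260.0, 236 and 233 CPM (log2 fold change -2.01, SE 0.23, edgeR adjusted p = 4.87e-06), and Adam19, another metalloprotease, rose from 3.28, 1.302 and 2.65 CPM to 26.5, 19 and 12.4 CPM (log2 fold change 3.01, SE 0.38, edgeR adjusted p = 1.47e-05). Plau, the urokinase activator of plasminogen, fell from 107, 219.6 and 354 CPM to 57.3, 22.02 and 67.3 CPM (log2 fold change -2.22, SE 0.77, edgeR adjusted p = 0.0247), a call that was lost without Prep+/- replicate 3 and without Prep-/- replicate 1 or 2. Itga8, an integrin alpha chain, was 17, 20.1 and 24.7 CPM and 0.901, 3.89 and 2.49 CPM (log2 fold change -3.07, SE 0.38, edgeR adjusted p = 1.2e-05). Itga4 rose (log2 fold change 1.04, SE 0.17, edgeR adjusted p = 0.000148).

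Among 11 prolyl peptidases and relatives of PREP tested, Prep fell, while Xpnpep1, an aminopeptidase named after its values were seen, stood at -0.57, edgeR adjusted p = 0.000339, short of the fold criterion, and met it when Prep+/- replicate 1 or Prep-/- replicate 2 was left out. Prcp, a lysosomal carboxypeptidase that also cuts at proline, rose from 71.01, 61.99 and 64.7 CPM to 256, 221 and 254 CPM (log2 fold change 1.89, SE 0.11, edgeR adjusted p = 2.61e-08). Its Prep-/- libraries were all above the Prep+/- range, as no Prep+/- library exceeded 71.0 CPM. Genes within 5 Mb of Prep can be carried along with the targeted locus in breeding. Of 29 tested, 4 were higher and 5 lower with a median of -0.13, which is close to the shares of all genes, and 4 higher and 7 lower without Prep-/- replicate 3. The DEGs with all libraries were, named after their values were seen, Prdm1 (1.44), Sesn1 (1.09), Foxo3 (1.02) and Armc2 (0.85), and Cd24a (-1.71), Qrsl1 (-1.38), Amd1 (-1.25), Rtn4ip1 (-0.97) and Cep57l1 (-0.77 on the log2 scale).

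**Figure D3:**
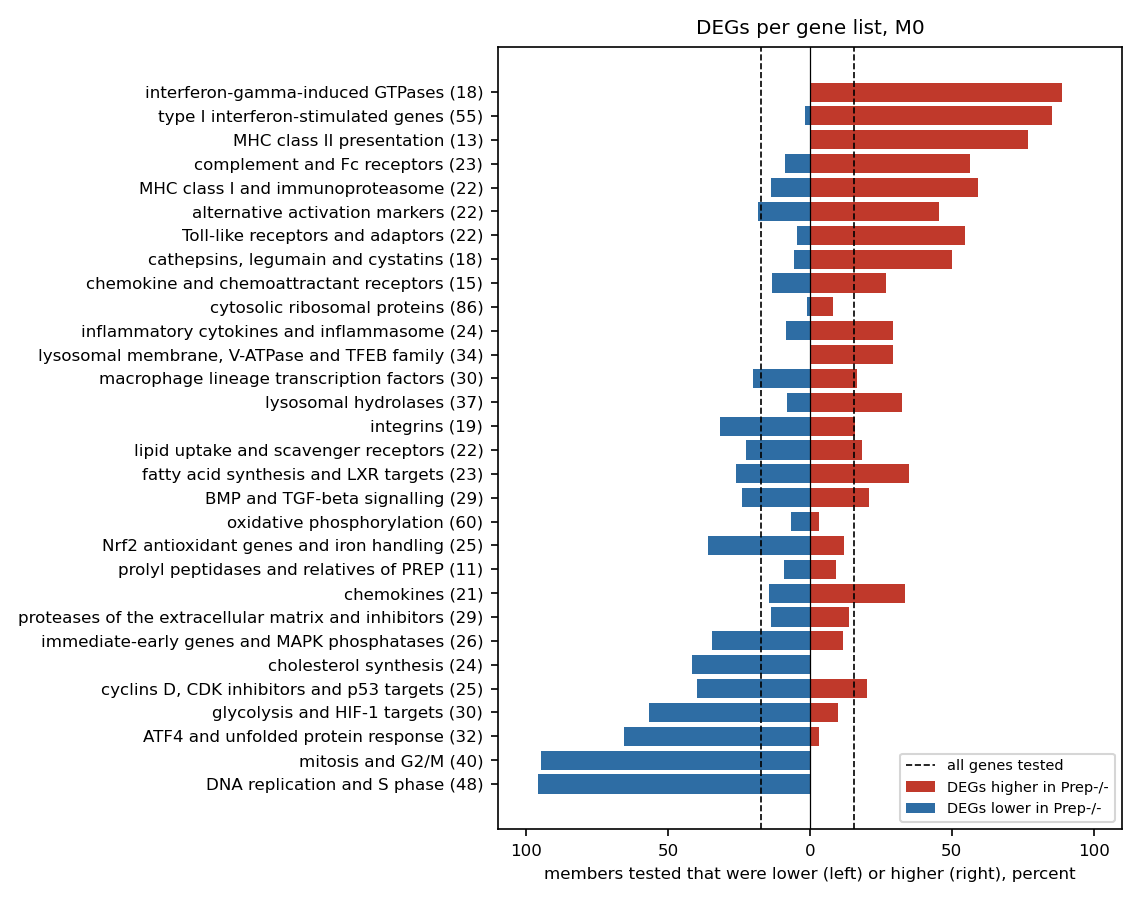
Share of tested members of each gene list that were DEGs lower (left, blue) or higher (right, red) in Prep-/- M0 BMDMs, in percent, with the number tested in brackets and dashed lines at the shares of all genes tested (17.2% lower and 15.4% higher). Lists are ordered by their median log2 fold change, from replication genes at -1.99 to interferon-gamma-induced genes at 2.44.

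**Figure D4:**
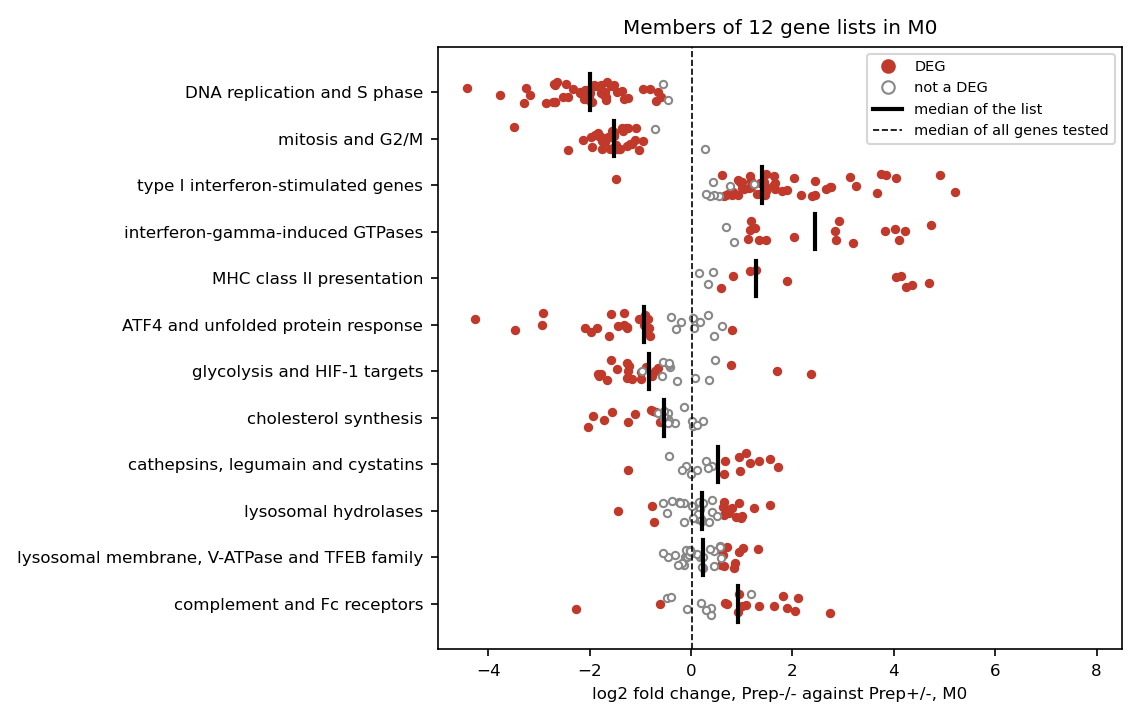
Log2 fold change of Prep-/- against Prep+/- in M0 for each tested member of a choice of lists, filled where the member was a DEG, with the median of the list as a bar and that of all genes tested (0.02) as a dashed line. Replication genes all lie below 0, whereas lysosomal lists straddle it.

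To see where the resting state differed from the stimulated ones, the effect of Prep loss in M0 was tested against that in M1 and in M2. The difference passed an edgeR adjusted p under 0.05 for 2956 genes between M0 and M1 (24.6%) and for 1159 between M0 and M2 (9.64%). The second number was 526 without Prep+/- M0 replicate 2, 585 without Prep+/- M0 replicate 3, 543 without Prep+/- M2 replicate 1 and 646 without Prep+/- M2 replicate 2. Of the 3913 M0 DEGs, 1650 differed from M1 and 819 from M2. Type I interferon-stimulated genes reached log2 medians of 1.40 (M0), 0.69 (M1) and 0.06 (M2), and 36 of 55 differed between M0 and M2, all with the higher effect in M0, and 22 between M0 and M1, 21 of them with the higher effect in M0. The first count was 22 without Prep+/- M2 replicate 1, and the second was 13 without Prep-/- M0 replicate 1 or Prep-/- M1 replicate 2 and 12 without Prep+/- M0 replicate 2. Cholesterol synthesis genes reached log2 medians of -0.54 (M0), 1.11 (M1) and 0.46 (M2), and 22 of 24 differed between M0 and M1, each with the lower effect in M0. ATF4 and unfolded protein response genes reached log2 medians of -0.93 (M0), -0.20 (M1) and -0.09 (M2), with 18 of 32 differing from M2 (11 without Prep+/- M0 replicate 3) and 15 from M1.

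The counts below stand against 24.6% of all genes differing between M0 and M1 and 9.64% between M0 and M2. Replication genes had medians of -1.99 (M0), -0.94 (M1) and -1.66 (M2), and 29 of 48 had a lower effect in M0 than in M1. The number differing from M2 was 3, and it ranged from 0 (without Prep+/- M0 replicate 2) to 8 (without Prep-/- M0 replicate 3) as single libraries were left out. Mitotic genes reached log2 medians of -1.53 (M0), -0.84 (M1) and -1.51 (M2), with 15 of 40 differing from M1 and none from M2. The first of these was 8 or 9 without Prep+/- M0 replicate 2 or 3, Prep+/- M1 replicate 2 or 3, or Prep-/- M1 replicate 2. Such counts lie below the 24.6% of all genes. MHC class II genes reached log2 medians of 1.28 (M0), 0.10 (M1) and 0.71 (M2), with 7 of 13 differing from M1.

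Some single genes changed in opposite directions between states. Thbs1 had a log2 fold change of 4.63 in M0 and -1.66 in M1 (difference from M1 6.30, SE 0.44, edgeR adjusted p = 5.98e-07). Phgdh, the first enzyme of serine synthesis, fell in M0 (-2.08) and rose in M1 (3.37, difference from M1 -5.45, SE 0.60, edgeR adjusted p = 2.53e-05). Asns did likewise, at -2.92 and 1.95 (difference from M1 -4.87, SE 0.55, edgeR adjusted p = 3.01e-05). These genes were chosen for the largest differences with an adjusted p under 0.05, so that SEs far smaller than the differences followed from the choice. Ms4a4a had a log2 fold change of 5.07 in M0 and of 0.78, not a called change, in M2 (difference from M2 4.29, SE 0.52, edgeR adjusted p = 0.000203). Slc7a1, a transporter of cationic amino acids, had -3.56 in M0 and -0.73 in M2 (difference from M2 -2.83, SE 0.69, edgeR adjusted p = 0.0185).

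**Figure D5:**
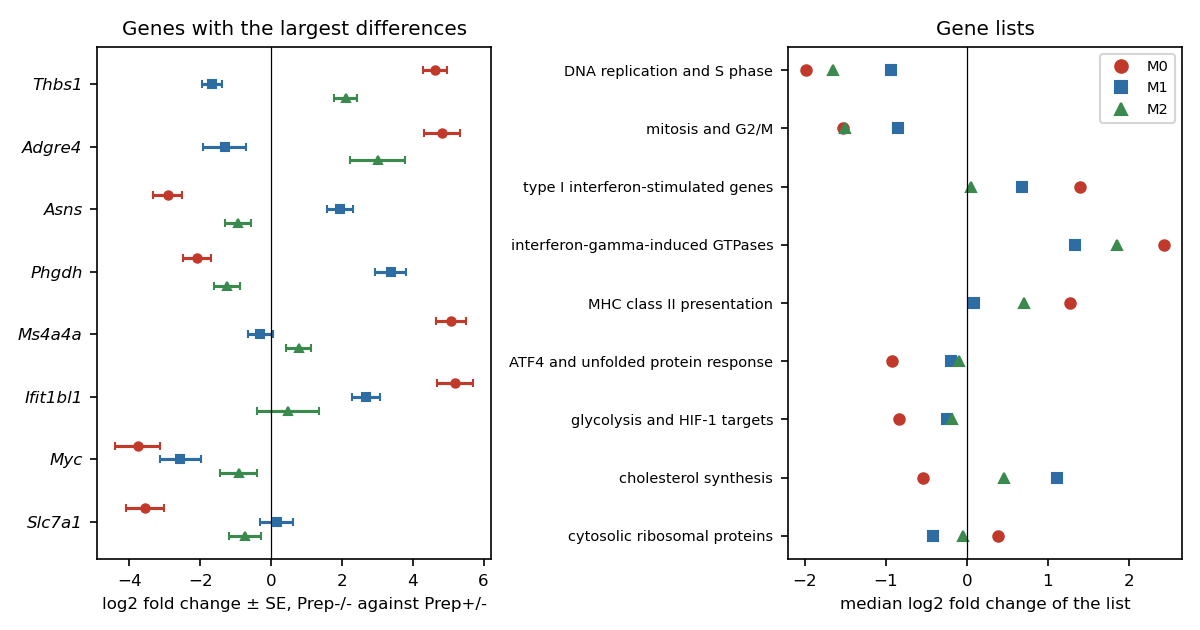
Left, log2 fold change of Prep-/- against Prep+/- with its SE in M0 (red circles), M1 (blue squares) and M2 (green triangles) for the genes whose effect differed most between states. Right, the median log2 fold change of gene lists in each state, where type I interferon-stimulated genes lie at 1.40 in M0 and 0.06 in M2, and cholesterol synthesis at -0.54 in M0 and 1.11 in M1.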

How the data were processed

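The authors trimmed the reads (Trimmomatic 0.36), aligned them to GRCm39 (HISAT2 2.2.1.0, versions per the submitters' processing notes) and deposited counts per gene for 16314 symbols without normalization. How strand and multiply matching reads were counted is not given in the sources used here. All 18 columns matched a sample by genotype, state and replicate number. edgeR 4.0.16 (R 4.3.3) kept 12021 genes with filterByExpr, scaled libraries by TMM and fitted a quasi-likelihood model to all 18 libraries with 1 coefficient per group, with Benjamini-Hochberg adjustment. DEGs passed both an adjusted p of 0.05 and a 1.5-fold change. CPM were computed with edgeR's cpm on TMM-adjusted library sizes. Alternatives were DESeq2 1.42.0, other size factors and filters, M0 libraries alone, a replicate block, other fold criteria and leaving out libraries. Members and gene lists were chosen with earlier results of these data known. Genes named were Prep, the 10 largest rises and falls (mean of at least 5 CPM, no overlap), the 3 largest in each direction and the most abundant member per list, the 2 largest state differences in each direction (among DEGs averaging 5 CPM or more whose difference had an adjusted p under 0.05), and genes named in the paper, with others, such as Rfc1, Rfc2, Ccnb2, Cenpa, Ahsg and Smad6, named after their values were seen. Cell type markers come from lists set for the check and were named with their values known. Positions are from GENCODE annotation of GRCm39, promoters from RefSeq for GRCm38.p6. SEs were computed as the size of the log2 fold change over the square root of its F statistic, so that they add nothing to the test. The p-values measure the spread between cultures.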

Additional observations from a re-analysis of the deposited data

Results flagged for a closer look

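The effect of Prep loss differed between M0 and M1 for 2956 genes and between M0 and M2 for 1159 genes, by a test of the difference itself. The genes below had the largest differences among M0 DEGs that averaged 5 CPM or more and whose difference passed an adjusted p of 0.05. Against M1, the log2 fold change in M0 was higher by 6.30 for Thbs1 and by 6.13 for Adgre4, and the difference was -5.45 for Phgdh and -4.87 for Asns. Their edgeR adjusted p-values were at most 6.2e-05, and at most 0.000345 under every alternative tried.

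Against M2, the difference was 4.72 for Ifit1bl1 (edgeR adjusted p = 0.0148), 4.29 for Ms4a4a (edgeR adjusted p = 0.000203), -2.85 for Myc (edgeR adjusted p = 0.0376) and -2.83 for Slc7a1 (edgeR adjusted p = 0.0185). The adjusted p reached 0.09 for Ifit1bl1 without Prep+/- M2 replicate 1, and 0.118 for Myc and 0.0542 for Slc7a1 without Prep+/- M0 replicate 3, so that these differences each passed or missed the threshold with 1 control library.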

How the results depend on the processing

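The M0 counts of higher and lower DEGs stayed within 1.5 times of 1848 and 2065 with DESeq2, other size factors, other filters on low counts, M0 libraries alone and a transcript length correction chosen after seeing the data (1838 and 2050). Without the fold criterion 2922 genes were higher, and with a test against a 1.5-fold change (glmTreat) 837 were higher and 1133 lower. Leaving out each library in turn gave 1549 to 2004 higher and 1948 to 2200 lower genes. It gave 2069 to 3569 genes differing between M0 and M1, and 526 to 1557 between M0 and M2, where 526 were left without Prep+/- M0 replicate 2, 585 without Prep+/- M0 replicate 3, 543 without Prep+/- M2 replicate 1 and 646 without Prep+/- M2 replicate 2. The cause was not tested. Equal replicate numbers did not pair the M0 samples (correlations of -0.107, -0.0393 and -0.315), and no M0 sample correlated best with its own number. With a replicate block over M0 libraries alone, 1398 genes were higher and 1746 lower, and with the block over all libraries 1830 and 2097. Of 178 named genes, 126 stayed on 1 side of the adjusted p threshold under every alternative, and none that passed it reversed. Depth limits genes with few counts, such as Nos2 and Il6.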
